A study of Gallus gallus with 8 samples.

Results

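The genes described here encode proteins that hold, release, refill, and buffer the calcium store of skeletal muscle. Of 10 genes chosen by name (*RYR3*, *ATP2A1*, *ATP2A2*, *ATP2A3*, *CASQ2*, *PLN*, *TRDN*, *JPH1*, *STIM1*, and *PVALB*), 8 have a row among the 17775 genes of the count table. *ATP2A1*, the pump of fast fibers, and *TRDN*, which encodes triadin, were not matched to a row and are not analysed here. RNA came from engineered muscle tissues of *Gallus gallus*, made from myoblasts of day 10 embryo thighs on hydrogels of gelatin and transglutaminase. Of these tissues, 5 were lysed at day 7 after the start of differentiation (week 1, tissues 1-1 to 1-5) and 3 at day 21 (week 3, tissues 3-1 to 3-3). All 8 were muscle cultures without motor neurons, and the labels name no drug or genetic change. The comparison asks which genes differed between the week 1 and week 3 tissues.

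In skeletal muscle, the sarcoplasmic reticulum is a membrane store wrapped around each myofibril. Depolarization of the T-tubule opens ryanodine receptors in the facing store membrane, and the released calcium starts contraction. Pumps of the SERCA family then return calcium to the store, where calsequestrin holds it, and cytosolic buffers such as parvalbumin speed relaxation in fast fibers. Bird skeletal muscle carries a pair of ryanodine receptors, the alpha and beta forms, and *RYR3* encodes the beta form. *RYR1*, which encodes the alpha form, was not matched to a row and is not analysed here.

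The 5 week 1 tissues had 14368710 to 16545497 estimated counts each, and the 3 week 3 tissues had 15447904 to 18902561. Values below are in FPKM-UQ, a normalized expression value made by the authors. Each value is the estimated count, raised by 1, over a factor set per tissue, so transcript length does not enter it. Levels of different genes were therefore not ranked against each other. The log2FC below is the log2 fold change of week 3 over week 1 from edgeR, given with its standard error (SE). Muscle identity was checked with 18 marker genes, of which 12 had a row. *DES*, which encodes desmin, ranged from 3932 to 4649 FPKM-UQ over all 8 tissues. *MYOG*, a regulator of myoblast differentiation, lay between 158 and 180 in week 1 tissues, below the 194 to 197 of week 3. Its edgeR adjusted p was 0.11. With an edgeR adjusted p below 0.05, 5 of the 12 markers were lower at week 3 and 1 was higher. Those lower were *ACTA1*, *ACTN2*, *MYOD1*, *LDB3*, and *MYOM2*, with log2FCs of −0.84, −0.64, −0.51, −0.38, and −0.33. The higher marker was *TNNI2*, at 0.30. Tissue 1-1 stood apart over all genes, with a chi-square per degree of freedom of 36.3 to 44.8 against the other week 1 tissues and of 4.71 to 10.0 among those. Without it, edgeR called 5498 genes in place of 3367, so results below were also computed without it. Tissue 1-1 was singled out in these same data, so no p-value computed without it is an independent test.

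Of the 8 genes, *JPH1* fell between the weeks and no gene rose, with a gene called at an edgeR adjusted p below 0.05 (quasi-likelihood test over all genes). The share with a fall was 1 of 8, beside 12.0% of the 14311 genes tested, and the share with a rise was 0 of 8, beside 11.5%. Without adjustment, *JPH1* was again the only one of the 8 with a p below 0.05 in the same edgeR test. DESeq2 and limma likewise called *JPH1* lower and none of the 8 higher. The median log2FC of the 8 genes was −0.04, against −0.01 for all genes tested. The definition used in the study asks for more than a 1.5-fold change at an unadjusted p below 0.05. The study applied it in Partek Flow, and here it was applied to the edgeR fit. In this fit none of the 8 passed it, beside 14.6% of all genes. The fitted fold change of *JPH1* was 1.46, just under that limit. It passed the limit when tissue 1-3 or tissue 1-5 was left out, with log2FCs of −0.60 and −0.59.

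**Figure D1:**
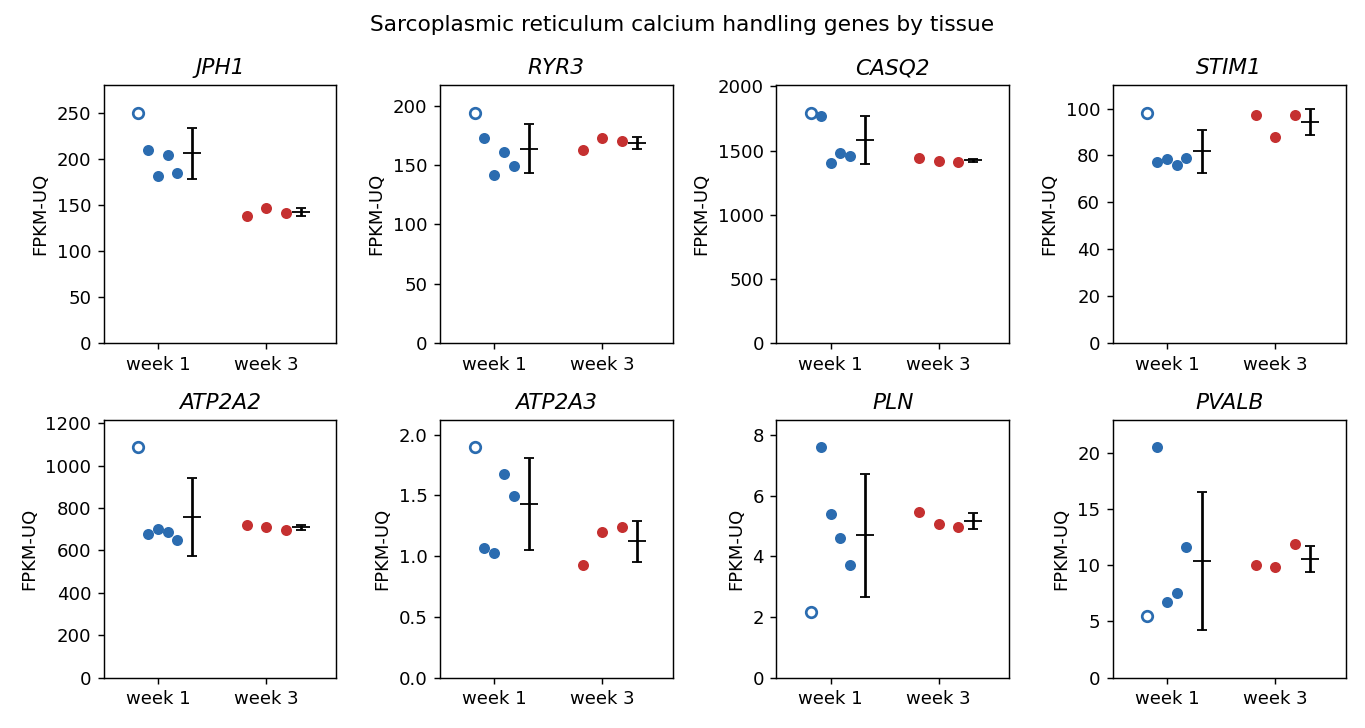
FPKM-UQ (y axis, linear, from 0) of the 8 genes in each week 1 tissue (blue, n = 5) and week 3 tissue (red, n = 3). The open circle is tissue 1-1, and black marks are the mean and SD of each week. The weeks are apart for *JPH1* and overlap for the other 7 genes.

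*JPH1* (chromosome 2, 118111383 to 118189825) encodes junctophilin 1, which tethers the T-tubule to the store membrane at the triad. Positions here and below are those of the count table, for which the submitters' processing notes name GRCg6a. Tissues 1-1 to 1-5 were at 250.4, 210.0, 181, 204, and 185 FPKM-UQ, and tissues 3-1 to 3-3 at 139, 147, and 142. Every week 3 tissue was below every week 1 tissue. Among the 15394 genes with FPKM-UQ values, 13.0% had all week 3 tissues below all week 1 tissues and 15.6% had them above, against 1 and 0 of the 8 genes. The mean fell from 206 ± 27.6 (SD, n = 5) to 142 ± 4.33 FPKM-UQ (SD, n = 3), with a log2FC of −0.55 (SE 0.10, edgeR adjusted p = 0.0024). Leaving out any of the 8 tissues kept the log2FC between −0.60 and −0.47 and the edgeR adjusted p at or below 0.019.

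These are bulk RNA values, so fewer myotubes and less transcript per myotube cannot be told apart. The summed FPKM-UQ of the 12 muscle markers was 24948 to 34191 at week 1 and 24189 to 24535 at week 3. In the same edgeR test, 5 of the 12 were lower and 1 higher, beside 12.0% and 11.5% of all genes. Scaling the tissues to these 12 markers moved the median log2FC of all genes to 0.21 and the calls from 1645 higher and 1722 lower to 3536 higher and 744 lower. On that scale the log2FC of *JPH1* was −0.33 (edgeR adjusted p = 0.039). Of 12 fibroblast markers, 7 were lower and 3 higher, beside the same shares of all genes. Those lower were *OGN*, *PDGFRA*, *DPT*, *LUM*, *COL3A1*, *TCF7L2*, and *DCN*, with log2FCs of −2.22, −1.60, −1.45, −0.94, −0.85, −0.45, and −0.32. Those higher were *POSTN*, *FBN1*, and *FAP*, at 0.49, 0.43, and 0.27. The summed FPKM-UQ of the 12 fibroblast markers was 20772 to 31992 at week 1 and 23329 to 24059 at week 3. Tissue 1-1, at 20772, was the lowest week 1 tissue in this sum. Of 8 smooth muscle markers, 4 were higher and 1 lower, beside 11.5% and 12.0% of all genes. Their summed FPKM-UQ was 4893 to 5758 at week 1 and 7875 to 8078 at week 3. *DES*, which is in both the muscle and the smooth muscle list, made up 3932 to 4649 at week 1 and 4364 to 4546 at week 3. The higher markers were *ACTA2*, *TAGLN*, *MYLK*, and *LMOD1*, with log2FCs of 2.04, 2.51, 1.37, and 1.30. The lower one was *SMTN*, at −0.44. The scaling above used muscle markers only and cannot separate cell number from transcript per cell. The part of these cell types in the fall of *JPH1* was not tested.

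*RYR3* (chromosome 5, 30373917 to 30541376) encodes a calcium release channel of the store. Its FPKM-UQ was 194, 173, 141, 161, and 149.6 in tissues 1-1 to 1-5 and 163, 173, and 170.1 in tissues 3-1 to 3-3. The week 3 tissues lay inside the week 1 range. Its log2FC was 0.02 (SE 0.10, edgeR adjusted p = 0.89). Its sign turned when tissue 1-3 or 1-5 was left out, to −0.03 and −0.01.

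*CASQ2* (chromosome 1, 81232635 to 81309585) encodes calsequestrin, the main calcium-binding protein inside the store, and RefSeq gives *CASQ1* as another name for the chicken gene. Its level was 1796, 1766, 1404, 1480.5, and 1458 FPKM-UQ in tissues 1-1 to 1-5, and 1439, 1416, and 1412 in tissues 3-1 to 3-3. Tissues 1-1 and 1-2 were high, and the other week 1 tissues were close to week 3. Here the log2FC was −0.17 (SE 0.09, edgeR adjusted p = 0.22). On the scale of the muscle markers it was 0.06, so the sign of this difference depends on the scaling. The row overlaps *VANGL1* on the opposite strand, with a mean of 131 counts against 24052 for *CASQ2*.

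*STIM1* (chromosome 1, 197098805 to 197144903) encodes the sensor that reports an emptied store to calcium entry channels at the cell surface. Tissues 1-1 to 1-5 were at 98.3, 77.0, 78.5, 76.0, and 78.8 FPKM-UQ, and tissues 3-1 to 3-3 at 97.3, 87.9, and 97.4. Tissue 1-1 lay above every week 3 tissue, whereas the other 4 week 1 tissues lay below every week 3 tissue. With all tissues, the log2FC was 0.19 (SE 0.09, edgeR adjusted p = 0.16). Without tissue 1-1, it was 0.27 (SE 0.06, edgeR adjusted p = 5.4e-04). Tissue 1-1 was singled out in these same data, so this p is not an independent test, and without it 19.1% of all genes were called higher. With any other tissue left out, the adjusted p was at least 0.18 in the same edgeR test. Relative to the muscle markers, the log2FC of *STIM1* was 0.40 (edgeR adjusted p = 0.016). On that scale the median log2FC of all genes was 0.21, and 24.7% of them were called higher.

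The pumps of the store were represented by *ATP2A2* (chromosome 15, 5600483 to 5641500), which encodes the SERCA2 pump of slow and cardiac muscle, and *ATP2A3* (chromosome 19, 3422032 to 3455962), which encodes SERCA3. *ATP2A2* was at 1086, 676, 700.3, 686, and 647 FPKM-UQ in tissues 1-1 to 1-5 and at 721, 708, and 698 in tissues 3-1 to 3-3. Its level in tissue 1-1 was 1.60 times the mean of the other week 1 tissues, and no other tissue was above 721. The log2FC was −0.11 with all tissues (SE 0.15, edgeR adjusted p = 0.64) and 0.05 without tissue 1-1 (edgeR adjusted p = 0.40). It was 0.10 on the scale of the muscle markers. *ATP2A3* was low, with 14 to 28 counts per tissue at week 1 and 17 to 20 at week 3. Its log2FC was −0.37 (SE 0.33, edgeR adjusted p = 0.45), about the size of its SE. The part of the low counts in this SE was not tested.

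*PLN* encodes phospholamban, which lowers the calcium affinity of SERCA2 in cardiac and slow muscle. Tissues 1-1 to 1-5 were at 2.16, 7.59, 5.39, 4.62, and 3.70 FPKM-UQ, and tissues 3-1 to 3-3 at 5.47, 5.06, and 4.96. The lowest tissue was 1-1, and the range of week 3 lay inside that of week 1. For *PLN* the log2FC was 0.13 (SE 0.31, edgeR adjusted p = 0.80), and it was −0.05 without tissue 1-1 and 0.37 without tissue 1-2. The counts were 32 to 106 at week 1 and 79 to 105 at week 3. The row of *PLN* spans only 160 bases (chromosome 3, 62988800 to 62988959) and lies within *CEP85L* on the opposite strand. The mean was 116 counts for *CEP85L* and 76.5 for *PLN*. Strand use in the counting is not given in the sources used here, so reads of the pair cannot be told apart in the *PLN* values or in their ratio to *ATP2A2*.

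Inhibitor and pump were also compared inside each tissue, where depth and scaling cancel. The log2 ratio of *PLN* to *ATP2A2* counts was −9.00 in tissue 1-1, −7.46 to −6.48 in tissues 1-2 to 1-5, and −7.14 to −7.05 at week 3. It differed by 0.33 between the week means (exact two-sided permutation test, p = 0.71), which is less than the SD of 0.94 at week 1, and by −0.06 without tissue 1-1. *SLN* encodes sarcolipin, a small inhibitor of SERCA pumps in skeletal and atrial muscle. Its ratio to *ATP2A2* was chosen after its values had been seen and is given as a description, with no test. The log2 ratio of *SLN* to *ATP2A2* was −3.24 in tissue 1-1, −2.10 to −1.64 in tissues 1-2 to 1-5, and −1.46 to −1.34 at week 3. The weeks did not overlap, and their means differed by 0.75, or by 0.47 without tissue 1-1.

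**Figure D2:**
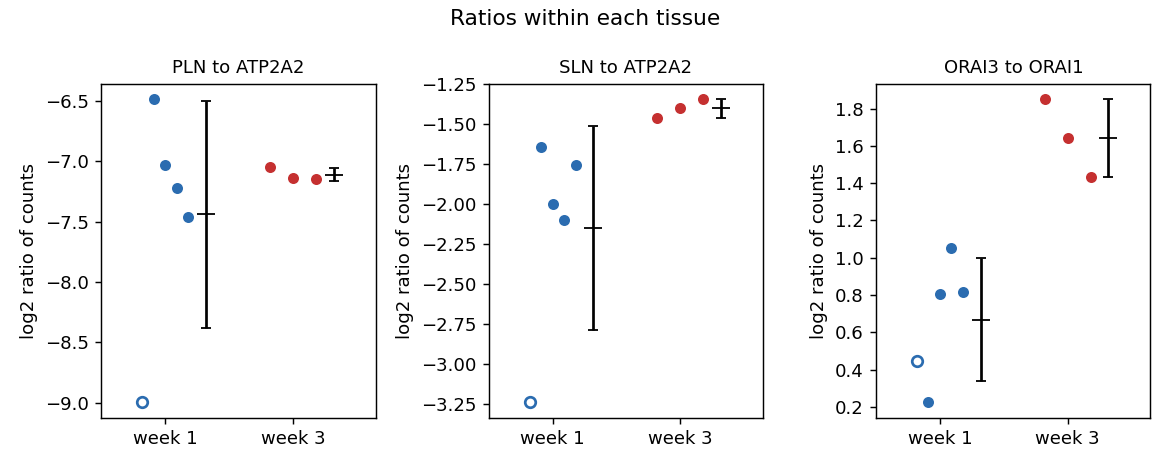
Log2 ratio of estimated counts (y axis, not starting at 0) of *PLN* to *ATP2A2*, *SLN* to *ATP2A2*, and *ORAI3* to *ORAI1* in each week 1 tissue (blue, n = 5) and week 3 tissue (red, n = 3). The open circle is tissue 1-1, and black marks are mean and SD. Week 3 lies above week 1 for *SLN* to *ATP2A2* and *ORAI3* to *ORAI1*, and the weeks overlap for *PLN* to *ATP2A2*.

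*PVALB* (chromosome 1, 51608164 to 51618693) encodes parvalbumin, a cytosolic calcium buffer of fast fibers. Its FPKM-UQ was 5.49, 20.5, 6.72, 7.49, and 11.7 in tissues 1-1 to 1-5 and 10.0, 9.86, and 11.9 in tissues 3-1 to 3-3. Tissue 1-2 was the highest of all and tissue 1-1 the lowest. The coefficient of variation was 59.0% at week 1 and 10.9% at week 3, and the log2FC was 0.02 (SE 0.35, edgeR adjusted p = 0.97). Without tissue 1-2 it was 0.43, and without tissue 1-1, 1-3, 1-4, or 3-3 its sign turned, down to −0.13. The direction for *PVALB* thus turned on which tissue was left out.

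Another gene of the parvalbumin family, *OCM2*, was added after its values had been seen. RefSeq gives this symbol, and *ATH* for avian thymic hormone, as other names of *OCM3*. *OCM2* was at 1109, 697, 798, 831, and 672 FPKM-UQ in tissues 1-1 to 1-5 and at 827, 855, and 857 in tissues 3-1 to 3-3. Tissue 1-1 was high for *OCM2* and low for *PVALB*. The log2FC of *OCM2* was 0.03 (SE 0.14, edgeR adjusted p = 0.91). It was 0.16 without tissue 1-1 (edgeR adjusted p = 0.038), where 19.1% of all genes were called higher. It turned to −0.03 and −0.04 without tissue 1-2 or 1-5.

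The week 1 tissues varied more than the week 3 tissues in all 8 genes. Their coefficients of variation were 11.4% to 59.0% at week 1, against 1.02% to 15.1% at week 3. Over the 13394 genes whose FPKM-UQ averaged 1 or more, the median was 12.9% at week 1 and 7.14% at week 3. Tissue 1-1 was the highest week 1 tissue in 6 of the 8 genes and the lowest in the other 2, *PLN* and *PVALB*. This tissue stood apart over all genes, and how often it was highest or lowest among them was not computed.

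**Figure D3:**
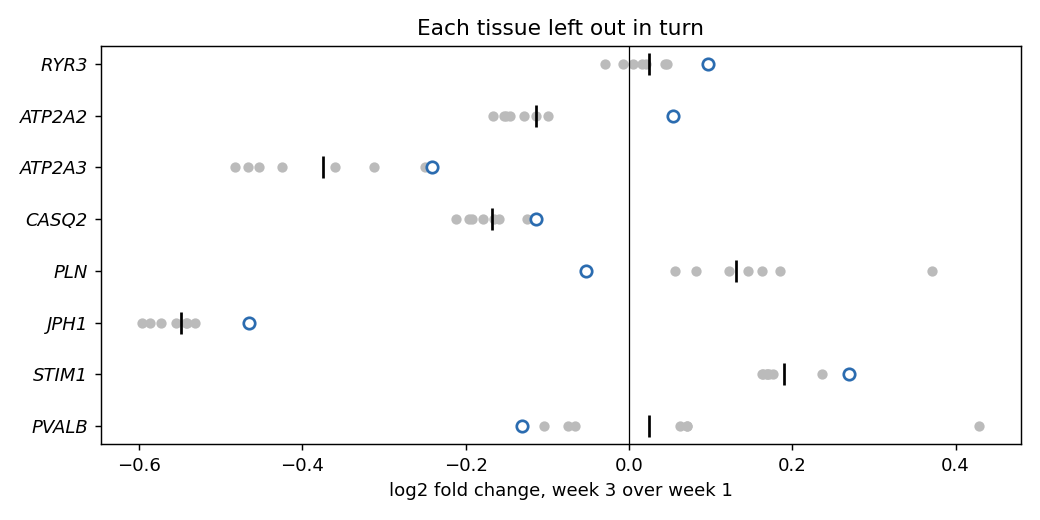
Log2FC (x axis, week 3 over week 1) of the 8 genes with all tissues (black bar) and with each of the 8 tissues left out in turn (gray circles, blue open circle without tissue 1-1). *JPH1* stays between −0.60 and −0.47, and *RYR3*, *ATP2A2*, *PLN*, and *PVALB* cross 0.

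Other genes of the triad and the store membrane were followed with a list of 27 genes, of which 19 had a row. By the same edgeR call, 4 of the 19 were higher and 6 lower, beside 11.5% and 12.0% of all genes. Their median log2FC was −0.10, against −0.01 for all genes. Over the fits that left out a tissue, 4 of the 10 remained called every time, *SRL*, *SLN*, *S100A1*, and *CACNB1*. The matching share of all called genes was not computed, so this count has no baseline. The number called lower was 3 without tissue 3-1 and 2 without tissue 3-3, where 7.86% and 7.50% of all genes were called lower. Relative to the muscle markers, 7 of the 19 genes were higher and 1, *SRL*, was lower, beside 24.7% and 5.20% of all genes. By the study's definition, applied to the edgeR fit with all tissues, 4 of the 19 passed, beside 14.6% of all genes. Of these 4, 3 were higher and 1 lower.

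**Figure D4:**
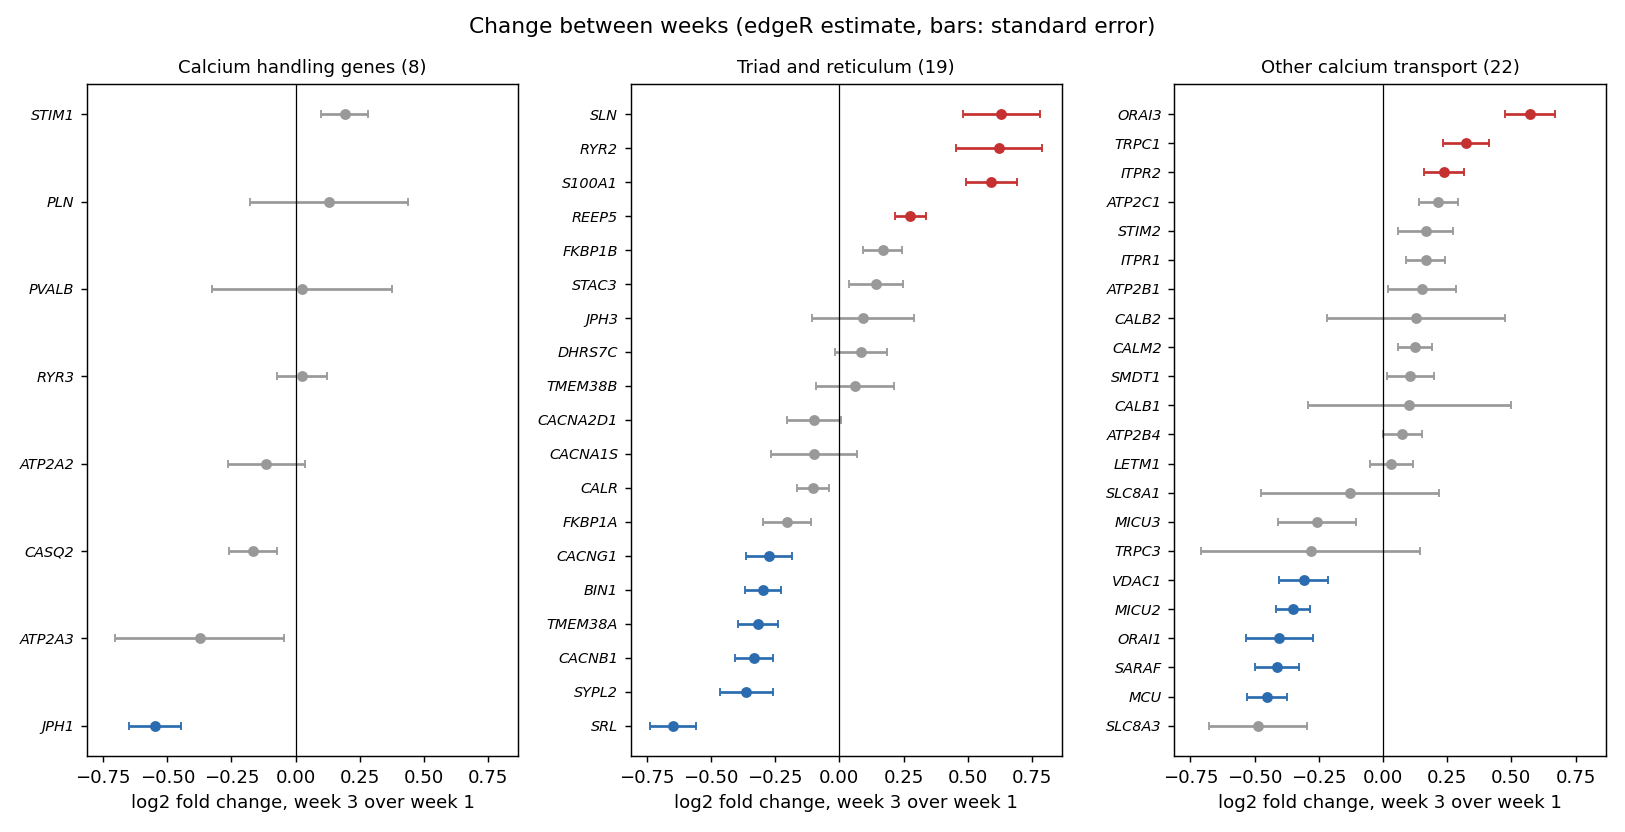
Log2FC (x axis, week 3 over week 1) and SE of the 8 calcium handling genes, 19 other triad and reticulum genes, and 22 of the 24 other calcium transport genes. Red and blue points are genes higher and lower at week 3 at an edgeR adjusted p below 0.05, and gray points are the rest. Beside *JPH1*, 6 triad genes and 5 transport genes are lower, and 4 and 3 are higher.

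*SRL* encodes sarcalumenin, a calcium-binding protein of the store lumen. It was at 411, 385, 318, 343, and 341 FPKM-UQ in tissues 1-1 to 1-5 and at 241, 222, and 233 in tissues 3-1 to 3-3. The weeks did not overlap, and the log2FC was −0.65 (SE 0.09, edgeR adjusted p = 3.7e-04). *SLN* moved the other way, from 115, 217, 175, 159.7, and 192 FPKM-UQ to 262, 269, and 275. All week 3 tissues were above all week 1 tissues, and the log2FC was 0.63 (SE 0.15, edgeR adjusted p = 0.010). *S100A1*, a calcium sensor that binds ryanodine receptors and SERCA, was at 87.2, 115, 112, 129.7, and 114 FPKM-UQ at week 1 and at 162, 172, and 175 at week 3. Its log2FC was 0.59 (SE 0.10, edgeR adjusted p = 0.0014), with no overlap between the weeks.

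*RYR2*, which encodes the ryanodine receptor of heart muscle, was low at 8.43, 6.10, 5.93, 5.42, and 5.91 FPKM-UQ in week 1 and rose to 10.0, 11.0, and 8.56 in week 3. Tissue 1-1 was close to the lowest week 3 tissue. The log2FC was 0.62 (SE 0.17, edgeR adjusted p = 0.019), and the adjusted p was 0.071 without tissue 3-1 and 0.099 without tissue 3-2. Of 8 heart markers, 5 had a row, and their 4 members with FPKM-UQ values summed to 9.18 to 17.2 at week 1 and 16.7 to 19.3 at week 3. *NKX2-5*, which has no FPKM-UQ value, had at most 5 counts in any tissue. Tissue 1-1, at 17.2, was the highest week 1 tissue in this sum. Of the 3 heart markers tested in edgeR, 1 was higher and 0 lower, beside 11.5% and 12.0% of all genes. The higher marker was *GATA4*, with at most 24 counts in any tissue (log2FC 2.14, edgeR adjusted p = 0.049). The part of heart cells in the rise of *RYR2* was not tested.

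Other genes of the list that fell act at the T-tubule, its voltage sensor, or the store membrane. *BIN1* encodes amphiphysin 2, which shapes T-tubules, and its log2FC was −0.30 (SE 0.07, edgeR adjusted p = 0.0084), with adjusted p = 0.055 without tissue 3-3. *TMEM38A* encodes the store cation channel TRIC-A, and its log2FC was −0.32 (SE 0.08, edgeR adjusted p = 0.012). Without tissue 3-1 or 3-3, its adjusted p was 0.061 and 0.064 in the same edgeR test. *CACNB1* and *CACNG1*, named after their values had been seen, encode subunits of the voltage sensor. Their log2FCs were −0.33 (adjusted p = 0.0065) and −0.27 (adjusted p = 0.044) in the same edgeR test. For *CACNG1*, leaving out any tissue except 1-1 raised the adjusted p in the same edgeR test to between 0.056 and 0.16. Relative to the muscle markers, the log2FC was −0.08 for *BIN1*, −0.10 for *TMEM38A*, −0.12 for *CACNB1*, and −0.05 for *CACNG1*, with edgeR adjusted p-values of 0.44 to 0.74.

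*SYPL2* encodes mitsugumin 29, a synaptophysin-like protein of the triad. Its log2FC was −0.36 (SE 0.10, edgeR adjusted p = 0.026), or −0.14 relative to the muscle markers (edgeR adjusted p = 0.35). The adjusted p was 0.055 to 0.096 in the same edgeR test without tissue 1-2, 1-4, 1-5, 3-1, 3-2, or 3-3. *REEP5*, also named after its values had been seen, shapes the membrane of the reticulum and had a log2FC of 0.28 (SE 0.06, edgeR adjusted p = 0.0065), with adjusted p = 0.053 without tissue 3-3. *FKBP1A*, whose product binds ryanodine receptors, and *CALR*, which encodes the lumenal chaperone calreticulin, had log2FCs of −0.20 (adjusted p = 0.14) and −0.10 (adjusted p = 0.26) in the same edgeR test. Without tissue 1-1, they were −0.27 (adjusted p = 1.7e-04) and −0.13 (adjusted p = 0.035) in the same edgeR test, where 19.5% of all genes were called lower. The rows of *SYPL2*, *REEP5*, *CALR*, and *ORAI1* overlap genes on the opposite strand, and whether the counting used strand is not given in the sources used here.

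A further list held 30 genes for store-operated entry, surface pumps and exchangers, mitochondrial uptake, and calcium buffers, and 24 of them had a row. By the same edgeR call, 3 of the 24 were higher and 5 lower, beside 11.5% and 12.0% of all genes, and their median log2FC was 0.07. Over the fits that left out a tissue, 4 of the 8 remained called every time, *ORAI3*, *SARAF*, *MCU*, and *MICU2*. Here too, the matching share of all called genes was not computed. Without tissue 1-1, 7 genes were higher, beside 19.1% of all genes, and without tissue 3-1, 1 gene was higher, beside 7.07%. The number called lower was 3 when leaving out tissue 1-2, 1-3, 1-5, 3-1, 3-2, or 3-3, beside 7.47% to 10.6% of all genes. Relative to the muscle markers, 7 were higher and 0 lower, beside 24.7% and 5.20% of all genes. No gene of the list had a fitted edgeR fold change above 1.5 with an unadjusted p below 0.05, beside 14.6% of all genes. The closest, *ORAI3*, had 1.49.

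The surface channels that STIM proteins open did not move together. *ORAI3* was at 25.7, 22.2, 28.7, 28.1, and 29.0 FPKM-UQ in tissues 1-1 to 1-5 and at 41.8, 41.3, and 37.3 in tissues 3-1 to 3-3. Its log2FC was 0.57 (SE 0.10, edgeR adjusted p = 0.0014), and the weeks did not overlap. *ORAI1* was at 18.9, 19.0, 16.4, 13.6, and 16.4 FPKM-UQ and then at 11.6, 13.3, and 13.8. Tissue 1-4 lay inside the week 3 range. The log2FC of *ORAI1* was −0.40 (SE 0.13, edgeR adjusted p = 0.042), and the adjusted p was 0.062 to 0.17 without tissue 1-2, 1-3, 1-5, 3-1, 3-2, or 3-3. Relative to the muscle markers, the log2FC of *ORAI1* was −0.18 (edgeR adjusted p = 0.36). Both genes were named after their values had been seen.

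Inside each tissue, the log2 ratio of *ORAI3* to *ORAI1* was 0.22 to 1.05 at week 1 and 1.43 to 1.85 at week 3. The week means differed by 0.97. This ratio was chosen after one gene had been seen to rise and the other to fall, so it is a description, with no test. *SARAF* encodes a brake on store-operated entry and had a log2FC of −0.41 (SE 0.09, edgeR adjusted p = 0.0047), or −0.20 relative to the muscle markers (edgeR adjusted p = 0.21). *TRPC1*, a cation channel, had a log2FC of 0.32 (SE 0.09, edgeR adjusted p = 0.023), with adjusted p = 0.075 without tissue 3-1 and 0.11 without tissue 3-2. Both were named after their values had been seen.

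Mitochondria take up calcium near the release sites through the uniporter. *MCU*, its pore, was at 113, 135, 113, 129.5, and 116 FPKM-UQ at week 1 and at 83.8, 93.2, and 91.6 at week 3. The weeks did not overlap, and the log2FC was −0.45 (SE 0.08, edgeR adjusted p = 0.0016). *MICU2*, a regulator of the pore that was named after its values had been seen, had a log2FC of −0.35 (SE 0.07, edgeR adjusted p = 0.0031). *VDAC1*, a channel of the outer membrane, had a log2FC of −0.31 (SE 0.10, edgeR adjusted p = 0.036). When any tissue except 1-1 was left out, its adjusted p was 0.053 to 0.12 in the same edgeR test. The mitochondrial genome took 5.52% to 6.39% of counts at week 1 and 4.65% to 4.82% at week 3, and its part in these falls was not tested. Relative to the muscle markers, the log2FC was −0.23 for *MCU* (edgeR adjusted p = 0.089), −0.13 for *MICU2* (edgeR adjusted p = 0.39), and −0.09 for *VDAC1* (edgeR adjusted p = 0.58).

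Among the remaining named genes, *CALM2* encodes the calcium sensor calmodulin and *ATP2B4* a surface calcium pump. Their log2FCs were 0.13 (edgeR adjusted p = 0.19) and 0.08 (edgeR adjusted p = 0.52). Without tissue 1-1, *ATP2B4* had a log2FC of 0.13 (edgeR adjusted p = 0.042), where 19.1% of all genes were called higher. *ITPR2*, a release channel of the reticulum opened by inositol trisphosphate, had a log2FC of 0.24 (SE 0.08, edgeR adjusted p = 0.046). It was named after its values had been seen, and its adjusted p was 0.066 to 0.21 without tissue 1-2, 1-3, 1-4, 1-5, 3-1, or 3-3.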

How the data were processed

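RNA of 8 tissues was sequenced on an Illumina NovaSeq. The submitters' processing notes name STAR 2.7.3a, Partek, GRCg6a, and galGal6, and strand use in counting is not given in the sources used here. The authors deposited estimated counts per gene, of which 80.98% were whole numbers, and a normalized signal called FPKM-UQ for 15394 genes. Recomputed over every gene, this signal is the count plus 1 over a factor per tissue (largest deviation, 0.000787%).

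After rounding, counts were normalized by TMM, filtered by filterByExpr, and fitted with the quasi-likelihood test of edgeR 4.0.16 (R 4.3.3), and p-values were adjusted by Benjamini-Hochberg over the 14311 genes left. The procedure was tested on simulated data in which no tissue stood apart, so that test does not cover a tissue like 1-1. Standard errors are the log2 fold change over the square root of F. The ratio of *PLN* to *ATP2A2* was compared with an exact permutation test over 56 splits (scipy 1.17.1). The number of myoblast harvests is not given in the sources used here, so p-values measure only the spread between these tissues, and harvest cannot be told apart from week.

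The members and gene lists were chosen with earlier results of these data known. Named genes were all members, listed genes with an adjusted p below 0.05 and a fold change above 1.5, and the 6 of each list with the highest mean count. Symbols were matched to rows directly or through RefSeq synonyms that are no symbol of their own. Some genes that this rule names are not reported here. A planned ratio with *ATP2A1* was not computed, because *ATP2A1* was not matched. Alternatives were DESeq2 1.42.0, upper-quartile factors, scaling to the geometric mean of the muscle markers, no filter, limma 3.58.1 on log2 FPKM-UQ (pseudocount 1 or 0.1, or a lowest mean of 1), the replicate number as a block, and each tissue left out.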

Additional observations from a re-analysis of the deposited data

Results flagged for a closer look

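In week 1, the gap between the highest or lowest tissue and its nearest neighbor was compared with the range of the 5 tissues for 31 genes, and 5 genes had a gap above the critical value. Chance gives such a gap in about 1 of 20 independent groups. These genes share the same 5 tissues and some were named after their values had been seen, so that rate cannot be set against their count. In all 5 genes the tissue apart was 1-1, which also stood apart from the other week 1 tissues over all genes (chi-square per degree of freedom of 36.3 to 44.8, against 4.71 to 10.0 among the others). It was at 1086 FPKM-UQ for *ATP2A2*, against 647 to 700.3 in the other week 1 tissues. For *STIM1* it was at 98.3, against 76.0 to 78.8. For *RYR2* it was at 8.43, against 5.42 to 6.10. For *ATP2B4* it was at 160.2, against 134 to 137. *SARAF* was lower there, at 60.8 FPKM-UQ against 73.1 to 77.6.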

How the results depend on the processing

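*JPH1* was called lower under all 17 alternatives, with a highest adjusted p of 0.039 in edgeR. The count of the 8 genes called higher was 1 when scaled to the muscle markers and 0 to 1 with a tissue left out. The replicate block used only tissues 1 to 3 of each week. By the study's definition, applied to the edgeR fits, 1 of the 8 was lower with the replicate block, beside 888 of 14120 genes. With tissues 1 to 3 of each week only (chosen after seeing the data), 1 of the 8 was lower, beside 938 of 14120. With a tissue left out, 0 to 1 of the 8 was lower, beside 993 to 1159 of 14211 to 14607 genes. Triad and reticulum genes called higher numbered 7 when scaled to the muscle markers and 2 with the replicate block, and those called lower numbered 1 and 3 in these settings and 2 to 8 with a tissue left out. Other calcium transport genes called higher numbered 7 when scaled to the muscle markers, 1 with the replicate block, 1 with tissues 1 to 3 only, and 1 to 7 with a tissue left out. Those called lower numbered 0 when scaled to the muscle markers, 3 with limma at a pseudocount of 1 or 0.1 or a minimum mean of 1, and 3 to 6 with a tissue left out. Calls over all genes also moved, to 24.7% higher and 5.20% lower when scaled to the muscle markers. They were 7.18% and 7.44% with the replicate block, and 8.07% and 8.51% with tissues 1 to 3 only. With a tissue left out they were 7.03% to 19.1% and 7.47% to 19.5%, and limma called 10.4% to 11.6% lower. Scaling to the muscle markers turned the log2 fold changes of *ATP2A2* to 0.10, *CASQ2* to 0.055, *FKBP1A* to 0.017, and *CALR* to 0.11. The replicate block turned *RYR3* to −0.017 and *OCM2* to −0.027, and tissues 1 to 3 only turned *RYR3* to −0.029, *PVALB* to −0.049, and *OCM2* to −0.056. With a tissue left out, the ranges were −0.029 to 0.10 for *RYR3*, −0.17 to 0.054 for *ATP2A2*, −0.052 to 0.37 for *PLN*, −0.13 to 0.43 for *PVALB*, and −0.037 to 0.16 for *OCM2*. The log2 ratio differences ranged from −0.06 to 0.57 for *PLN* to *ATP2A2*, from 0.47 to 0.87 for *SLN* to *ATP2A2*, and from 0.86 to 1.08 for *ORAI3* to *ORAI1*. The cause of these moves was not tested. Deviations of same-numbered tissues from their week's mean correlated at −0.02 to 0.02, and those of other pairs at −0.05 to 0.04. With 3 tissues per week, tissue 1-1 among them, this cannot show whether replicate numbers pair the tissues. Of the 8 genes, *ATP2A3* and *PLN* had the lowest mean counts, 19.6 and 76.5. The part of depth in their SEs was not tested.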

Other observations

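The voltage sensor of the T-tubule had 3 further genes with a row, which were named after their values had been seen. *CACNA1S*, its pore subunit, was at 270.1 FPKM-UQ in tissue 1-1, 152 to 163 in tissues 1-2 to 1-5, and 166 to 177 at week 3. *CACNA2D1*, an auxiliary subunit, was at 301 in tissue 1-1, 207 to 244 in tissues 1-2 to 1-5, and 221 to 233 at week 3. *STAC3*, an adaptor that couples the sensor to release, was at 119.6 to 168 FPKM-UQ at week 1 and 145 to 171 at week 3. In edgeR, the adjusted p was 0.72 for *CACNA1S*, 0.55 for *CACNA2D1*, and 0.37 for *STAC3*.

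*SLC8A3*, a sodium-calcium exchanger, was at 30.2 FPKM-UQ in tissue 1-1, 16.4 to 18.7 in tissues 1-2 to 1-5, and 13.0 to 16.3 at week 3. The weeks did not overlap, and its log2FC was −0.49 (SE 0.19, edgeR adjusted p = 0.087). Without tissue 1-1 the log2FC was −0.29 (edgeR adjusted p = 0.034), where 19.5% of all genes were called lower. It was also named after its values had been seen.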
